A study of Mus musculus with 12 samples.

Results

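The right and the left medial prefrontal cortex (mPFC) of mice in which the sciatic nerve of the left leg had been constricted (chronic constriction injury, CCI) were compared by RNA sequencing. The right mPFC, contralateral to the injured nerve (4 libraries), was set against the left mPFC, ipsilateral to the nerve (4 libraries). All 8 libraries are from wild-type male mice at day 28 (4 weeks) after the operation, so both sides carry the injury. The series holds 12 libraries; the 4 naive libraries, whose side the labels do not give, took no part in the comparison. Without right and left libraries of uninjured mice, a difference that comes with the injury and one that the hemispheres always have cannot be told apart. The labels give neither strain nor age, and do not say whether animals were pooled. The library codes carry a number from 1 to 4, and right and left libraries with 1 number were taken as pair 1 to pair 4; the labels do not say outright that a pair is 1 mouse. Of 34745 genes in the count table, 15526 had enough counts to be tested.

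CCI ties loose ligatures around the sciatic nerve and is a standard rodent model of neuropathic pain. The mPFC takes part in the appraisal and the descending control of pain, and its main cells are glutamatergic pyramidal neurons in layers, GABAergic interneurons, glia and vessels, with meninges on the cortical surface. A bulk sample holds all of them, so fewer cells of a type and less RNA per cell cannot be told apart. The question is which transcripts differ between the hemisphere contralateral to the injured nerve and the ipsilateral one.

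Total counts were 17.4 ± 0.86 M in right libraries and 18.5 ± 1.47 M in left libraries (SD, n = 4 each), with right pair 2 the shallowest (16.1 M) and left pair 2 the deepest (20.6 M). Mitochondrially encoded transcripts took 8.0% ± 1.16 of the counts on the right and 7.31% ± 0.19 on the left. Slc17a7, the vesicular glutamate transporter of cortical pyramidal neurons, was high in all 8 libraries (1657 to 1911 CPM on the right and 1776 to 2007 CPM on the left, CPM being counts per 10 to the power 6 reads). Right pair 1 and the libraries of pair 2 stand apart in ways that touch the results. The summed level of 13 striatal marker genes was 838 CPM in right pair 1, against 513 to 528 CPM in the other right libraries and 507 to 582 CPM in the left libraries, and Adora2a, the adenosine receptor of striatopallidal neurons, had 15.2 CPM there and at most 2.93 CPM in any other library. Pair 2 differed from the other pairs in its direction for many gene groups, as described below.

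No gene passed the test between sides. In edgeR's paired quasi-likelihood test, 0 of 15526 genes had a Benjamini-Hochberg adjusted p under 0.05 (0.0%). The lowest adjusted value was 0.741. An unadjusted p below 0.05 was reached by 725 genes (4.67%), of which 427 (2.75%) were higher on the right and 298 (1.92%) lower. With library totals in place of TMM factors, the genes at an unadjusted p under 0.05 split into 559 higher and 201 lower. If all p-values were uniform, 776 would lie below that level. DESeq2 with the same pairing called 6 genes, and edgeR without pair 2 called 71; both sets are described below. Levels were higher on the right in 4 of 4 pairs for 1000 genes (6.44%) and lower in 4 of 4 for 992 genes (6.39%). The 4 right and 4 left values did not overlap for 246 genes with the right side higher (1.58%) and for 211 genes with the right side lower (1.36%).

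The genes of smallest p included a lipid enzyme on the higher side and 2 markers of deep cortical layers on the lower side. Abhd4 (chr14:54254188-54270637 in the deposited table, build GRCm38) encodes a hydrolase that makes precursors of N-acylethanolamines, the lipid family of anandamide. Its level was 47.5, 40.3, 29.2 and 32.4 CPM in the right libraries of pairs 1 to 4, against 29.0, 25.6, 19.7 and 23.6 CPM in the left libraries. The sides did not overlap, and the right was higher in 4 of 4 pairs (log2 fold change of right over left 0.60 ± 0.07, SE; adjusted p = 0.741 by edgeR and 0.000507 by DESeq2). Napepld, which encodes another enzyme that releases N-acylethanolamines, had 17.7, 16.2, 18.3 and 20.8 CPM on the right and 13.2, 9.94, 16.1 and 16.7 CPM on the left. It too was higher on the right in 4 of 4 pairs (0.40 ± 0.11), with some overlap of the sides and an adjusted p of 0.821 by edgeR. Of 13 tested opioid and endocannabinoid genes, Napepld was the only 1 higher in 4 of 4 pairs (6.44% of all tested genes were). In that list 5 genes had a positive and 8 a negative log2 fold change, with a median of -0.03.

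Syt6 (chr3:103575231-103645569) encodes a synaptotagmin and marks corticothalamic neurons of layer 6. It had 22.0, 25.0, 23.3 and 22.7 CPM in the right libraries and 45.5, 41.2, 35.4 and 33.0 CPM in the left libraries. Every right library lay below every left one (log2 fold change -0.73 ± 0.10; adjusted p = 0.741 by edgeR and 0.000421 by DESeq2). Tbr1 (chr2:61802930-61814114), the transcription factor that specifies layer 6 neurons, had 196, 120, 77.0 and 144 CPM on the right and 247, 220, 96.5 and 238 CPM on the left. The right was lower in 4 of 4 pairs, but the sides overlapped, with both libraries of pair 3 low (-0.56 ± 0.11; adjusted p = 0.821 by edgeR and 0.0176 by DESeq2). Pde1a (chr2:79834453-80129458), a calcium- and calmodulin-stimulated phosphodiesterase of cyclic nucleotides, had 206, 225, 136 and 137 CPM on the right against 300, 322, 276 and 304 CPM on the left. It gave the smallest adjusted p in DESeq2 (3.02e-05), with no overlap of the sides and a log2 fold change of -0.81 ± 0.12 (adjusted p = 0.821 by edgeR).

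The other genes called by DESeq2 were Prrt3 and Chpf. Prrt3, a proline-rich membrane protein gene, had 61.3, 60.2, 51.1 and 46.5 CPM on the right and 96.8, 84.7, 74.6 and 56.2 CPM on the left (-0.49 ± 0.08; adjusted p = 0.821 by edgeR and 0.0101 by DESeq2). Chpf, a polymerase of chondroitin sulfate chains, had 68.5, 38.3, 55.9 and 54.2 CPM on the right and 82.9, 50.5, 79.4 and 85.1 CPM on the left (-0.46 ± 0.08; adjusted p = 0.821 by edgeR and 0.0388 by DESeq2). Both were lower on the right in 4 of 4 pairs, and in both the sides overlapped.

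**Figure D1:**
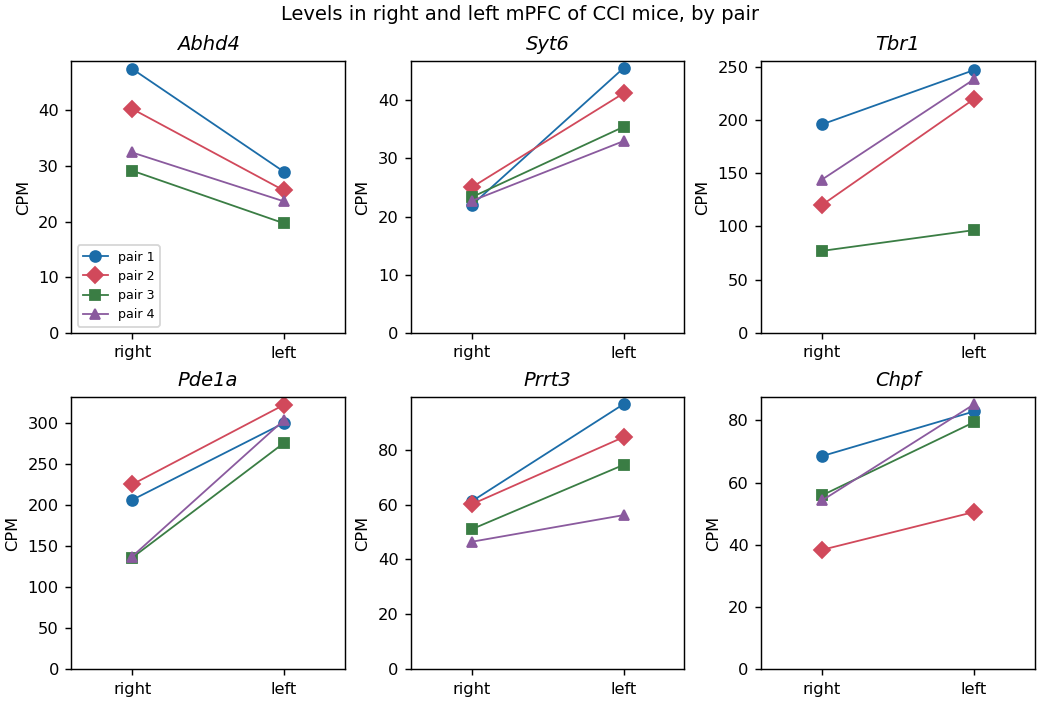
Levels in CPM (vertical axes, from 0) of the 6 genes that DESeq2 called between sides, in right and left mPFC of CCI mice; each line joins the right and left library of 1 pair. Abhd4 was higher on the right in 4 of 4 pairs and Syt6, Tbr1, Pde1a, Prrt3 and Chpf were lower in 4 of 4 pairs; none passed edgeR's paired test.

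Among the 12 genes of smallest p on the lower side, the others were Arrdc3, Trim66, Zfp568, Gpatch4, Prrt2, Fam173b and Usp10. Zfp568, a repressive zinc finger protein gene, had the largest difference of them: 1.32, 1.498, 1.75 and 1.44 CPM on the right, against 3.59, 2.62, 4.42 and 2.51 CPM on the left (-1.10 ± 0.21). Prrt2, a presynaptic gene mutated in human paroxysmal dyskinesia, differed by -0.40 ± 0.08; an overlapping gene model shares exons with it, so its counts are uncertain. Usp10, a deubiquitinase gene, had the smallest difference (-0.30 ± 0.06), and its sides did not overlap (30.6 to 38.4 CPM on the right, 38.9 to 47.0 CPM on the left). The 12 genes of smallest p on the higher side were Abhd4, Cenpf, Elmo3, Tbx15, Dnah7b, Tmcc3, Scn3b, Mirg, Zfp260, Sorbs3, Cdh7 and Foxo4. Scn3b, an auxiliary subunit of voltage-gated sodium channels, had 41.2, 39.6, 34.9 and 39.2 CPM on the right and 25.0, 34.4, 27.5 and 28.1 CPM on the left (0.44 ± 0.09). The sides did not overlap, although by a margin of less than 1 CPM. Mirg, a maternally expressed noncoding RNA of an imprinted locus, had 28.2, 29.3, 29.3 and 37.0 CPM on the right and 22.0, 22.6, 25.9 and 26.8 CPM on the left (0.34 ± 0.08). Cenpf, a kinetochore gene of dividing cells, and Tbx15, a mesenchymal transcription factor, were near the detection floor: Cenpf had 48, 11, 10 and 12 reads on the right and 9, 6, 2 and 5 on the left, and Tbx15 had 12, 15, 14 and 16 against 4, 7, 5 and 5. All 24 genes lay the same way in 4 of 4 pairs, which is largely how they were selected. Of all tested genes, 6.44% were higher and 6.39% lower on the right in 4 of 4 pairs. The adjusted p by edgeR was 0.741 for Abhd4 and Syt6 and 0.821 for the others.

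Markers of the upper cortical layers had opposite directions in pair 2 and in the other 3 pairs. Of 12 tested markers of upper-layer pyramidal neurons, 10 had a positive log2 fold change (50.3% of all tested genes did) and none passed the test. Their median difference between right and left, on the log2 scale, was 0.74 in pair 1, -0.44 in pair 2, 0.50 in pair 3 and 0.34 in pair 4, while the same median over all tested genes lay between -0.01 and 0.00. Otof, the otoferlin gene, had 48.2, 8.36, 57.1 and 58.9 CPM on the right and 6.27, 41.6, 28.5 and 14.2 CPM on the left. Cux2, the homeobox gene of upper-layer neurons, had 96.6, 37.8, 150 and 132 CPM on the right and 42.9, 87.9, 85.5 and 66.9 CPM on the left. Right pair 2 was thus the lowest library of all 8 for Cux2, and for Otof, Calb1 and Wfs1 only left pair 1 lay lower. Cux2 did not pass with all pairs (0.48 ± 0.51; unadjusted p = 0.404, adjusted p = 0.859 by edgeR); without pair 2 its adjusted p by edgeR was 0.0109 with a log2 fold change of 0.99. Calb1, the calbindin gene, passed in the same way (0.96; adjusted p = 0.0153), as did Rasgrf2 (0.70; adjusted p = 0.0291). None of the 3 was called without pair 2 when the pairs were not fitted as a block.

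Of 14 markers of deep-layer neurons, 12 had a negative log2 fold change (49.7% of all tested genes did), with a median of -0.22 and none past the test. By pair the median difference was 0.00, 0.15, -0.44 and -0.40. Syt6 and Tbr1 were the only 2 of the 14 lower in 4 of 4 pairs (6.39% of all tested genes were). Rprm, which marks layer 6 neurons, had 84.9, 125, 65.9 and 42.6 CPM on the right and 123, 114, 102 and 90.4 CPM on the left (-0.53 ± 0.20). Ntsr1, Foxp2 and Tle4, further markers of layer 6 neurons, differed by -0.06 ± 0.14, -0.20 ± 0.26 and -0.23 ± 0.15, each with pairs in both directions.

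Markers of the meninges, at the surface of the cortex, had the widest differences of any list. Of 20 listed markers of meninges and fibroblasts, 18 could be tested, and 17 had a positive log2 fold change. The summed level was 120, 65.0, 112 and 151 CPM on the right and 76.4, 112, 75.9 and 76.7 CPM on the left, so pair 2 alone had the higher sum on the left. The median difference was 1.04, -1.24, 0.93 and 1.30 in pairs 1 to 4. Fmod, the fibromodulin gene, had 5.37, 1.12, 3.79 and 5.53 CPM on the right and 1.25, 4.94, 1.09 and 1.54 CPM on the left. Tbx15 and Foxd1 were the 2 of 18 that stood higher on the right in every pair (6.44% of all tested genes did). Both were near the detection floor, with 78 and 107 reads over all 8 libraries. Foxd1 had 0.82, 0.69, 1.30 and 1.49 CPM on the right and 0.34, 0.48, 0.46 and 0.40 CPM on the left. The contractile genes of vascular smooth muscle ran with the meningeal markers: Acta2, smooth muscle actin, had 15.1, 6.43, 20.6 and 20.03 CPM on the right and 6.90, 15.7, 6.49 and 7.18 CPM on the left. Rgs5, a pericyte gene, had 104 to 125 CPM on the right and 99.1 to 110 CPM on the left.

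Pair 2 ran against the others across the table as well. Across 15526 genes, the Pearson correlation of the difference between sides was 0.11 for pairs 1 and 3, 0.28 for pairs 1 and 4, and 0.24 for pairs 3 and 4, but -0.19, -0.17 and -0.24 for pair 2 with pairs 1, 3 and 4; genes of 1 library are not independent. The side of each pair 2 library rests on its label, and whether right and left were exchanged in pair 2 was not tested. Exchanging them would turn the sign of every pair 2 difference and alter the fits with all pairs. Syt6 (-0.72), Tbr1 (-0.87), Abhd4 (0.65) and Tbx15 (1.22) had the same direction in pair 2 as in the other pairs, with the labels as given. They were named for their small p in the fit with all pairs, so this shared direction is largely how they were selected. It is no test of the pair 2 labels. For 5927 genes pairs 1, 3 and 4 shared a direction, and pair 2 had the opposite one in 66.4% of them. The same share, taken for the other pairs in turn, was 48.7% for pair 1, 42.2% for pair 3 and 34.9% for pair 4. Without pair 2, edgeR called 71 genes, 42 higher on the right and 29 lower. Of these, 62 had the opposite direction in pair 2, which is largely how they were selected, since 0 were called with all pairs. They included the meningeal genes Fmod, Slc13a4, Slc22a6, Dcn, Col1a2, Aldh1a2 and Slc6a13, the smooth muscle genes Acta2, Myl9, Myh11 and Tagln, and the upper-layer genes Cux2, Calb1 and Rasgrf2, all higher on the right. Among those lower on the right were Syt6, Rprm, Pde1a, the kappa opioid receptor gene Oprk1 and the sodium channel gene Scn1a. Without pair 2 and without the pairs as a block, 51 genes were called, and 32 of the 71 were among them. Fmod, Slc13a4, Dcn, Col1a2, Acta2, Myl9, Tagln and Oprk1 were called in both fits; Slc22a6, Aldh1a2, Slc6a13, Myh11, Cux2, Calb1, Rasgrf2, Syt6, Rprm, Pde1a and Scn1a were called only with the block. Leaving out pair 1, 3 or 4 gave 0 calls each with the block. The part of meningeal or layer content in these differences was not tested.

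**Figure D2:**
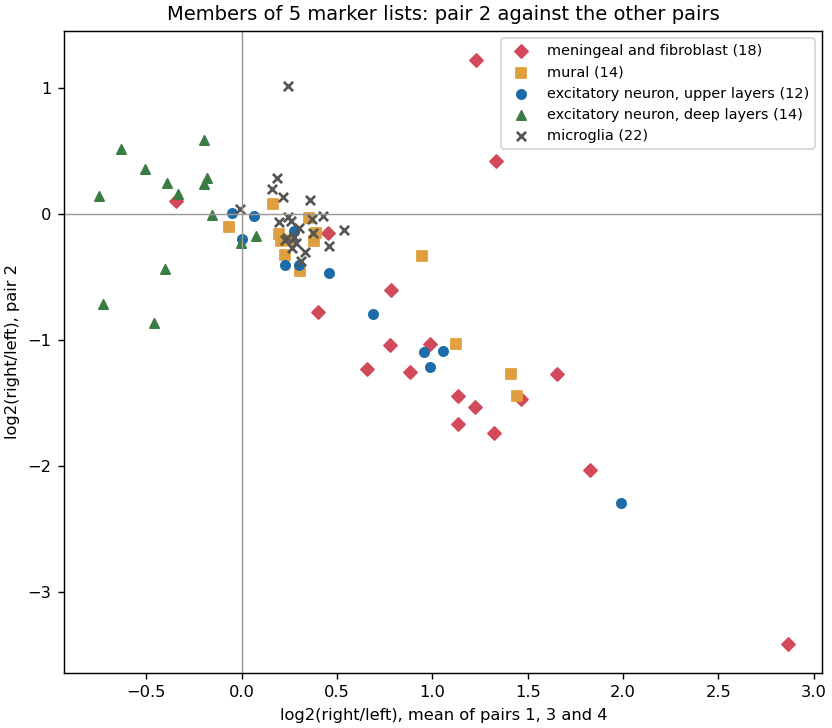
Difference between right and left on the log2 scale for each tested member of 5 marker lists, with the mean of pairs 1, 3 and 4 on the horizontal axis and pair 2 on the vertical axis. Most meningeal, mural and upper-layer markers lie at the lower right, higher on the right in pairs 1, 3 and 4 and lower in pair 2; Tbx15 and Foxd1 are the meningeal markers above 0 on both axes.

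Glial and vascular markers leaned to the right side by small amounts that did not pass the test. All 22 tested microglial markers had a positive log2 fold change, with a median of 0.18 and with 4 of them higher in 4 of 4 pairs (6.44% of all tested genes were); their summed level was 680, 605, 759 and 853 CPM on the right and 614, 638, 637 and 611 CPM on the left. Cx3cr1, the fractalkine receptor of microglia, had 60.4, 54.7, 72.8 and 77.8 CPM on the right and 52.7, 56.4, 55.1 and 54.8 CPM on the left (0.27 ± 0.10; adjusted p = 0.821 by edgeR). C1qc, a chain of complement C1q, had 30.4, 30.4, 32.4 and 40.7 CPM on the right and 26.4, 28.1, 26.9 and 26.8 CPM on the left, without overlap (0.30 ± 0.09). Aif1, the gene of the microglial protein Iba1, had a log2 fold change near 0 (0.01 ± 0.19, 95% interval -0.43 to 0.45). Of 20 astrocyte markers 19 had a positive log2 fold change, with a median of 0.16. Gfap, the astrocyte filament gene, had 119, 51.0, 61.7 and 64.8 CPM on the right and 38.8, 54.8, 36.4 and 14.2 CPM on the left (1.10 ± 0.46; adjusted p = 0.821 by edgeR); pair 2 alone was lower on the right. Mfge8, a secreted phagocytic opsonin of astrocytes, was the only 1 of the 20 higher on the right in 4 of 4 pairs (6.44% of all tested genes were). Its difference was only 0.03 in pair 2. It was also the only 1 without overlap and with the right side higher (124 to 175 CPM on the right, 93.5 to 121 CPM on the left), against 1.58% of all tested genes. Endothelial markers had a median of 0.11, with pair medians of -0.05, -0.05, 0.27 and 0.39, so only pairs 3 and 4 were above 0. Mural and blood cell markers had medians of 0.19 and 0.20, both negative in pair 2 alone. Microglial and astrocyte medians were negative in pair 2 as well (-0.09 and -0.05), with 6 of 22 and 6 of 20 markers higher on the right there. These medians were also highest in pairs 3 and 4 (0.25 and 0.48 for microglia, 0.25 and 0.47 for astrocytes). The right libraries of these pairs had the highest mitochondrial shares, 8.66% and 9.28%, whose part in the result was not tested.

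Myelin genes followed the pair more than the side. The summed level of 22 oligodendrocyte and myelin genes was 5791, 6416, 3011 and 2899 CPM on the right and 5473, 4184, 3810 and 2900 CPM on the left, so pairs 1 and 2 were high and pairs 3 and 4 low on the right, while on the left pair 1 was the highest and pair 4 the lowest. The median difference was 0.09, 0.61, -0.36 and 0.02. Mbp, the myelin basic protein gene, differed by 0.11 ± 0.14 (95% interval -0.23 to 0.45). Oligodendrocyte precursor markers had a median of 0.18, with 13 of 14 above 0.

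Genes of antigen presentation and the interferon response stood above 0 in 22 of 24 cases, with a median of 0.20 and 4 genes higher in 4 of 4 pairs (6.44% of all tested genes were). By pair the median was -0.01, 0.02, 0.30 and 0.45, with 12, 13, 18 and 20 of the 24 genes higher on the right, so only pairs 3 and 4 had a median clearly above 0. The right libraries of pairs 3 and 4 also had the highest mitochondrial shares (against 6.89% to 7.59% in the other 6 libraries), and here too their part was not tested. Ifit3, an interferon-induced gene, had 5.54, 6.87, 8.98 and 7.14 CPM on the right and 4.96, 4.80, 5.80 and 5.01 CPM on the left (0.46 ± 0.13). H2-Aa, an MHC class II gene, was near the detection floor, with 98 reads over all 8 libraries. It had 0.71, 0.62, 1.02 and 1.72 CPM on the right and 0.17, 0.58, 0.40 and 0.23 CPM on the left. Ifit3 and H2-Aa both had an adjusted p of 0.821 by edgeR.

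Genes of neuronal signalling leaned to the left side, again without passing the test. Of 18 genes of GABA receptors and the inhibitory synapse, 15 had a negative log2 fold change, with a median of -0.08; 6 of 18 were lower on the right in 4 of 4 pairs (6.39% of all tested genes were) and 3 did not overlap between sides (1.36% of all). Among those lower in 4 of 4 pairs, Gabrg3, a gamma subunit of GABA-A receptors, had 46.5, 50.9, 42.1 and 38.7 CPM on the right and 51.0, 52.9, 50.9 and 47.4 CPM on the left, with the sides overlapping (-0.19 ± 0.07; adjusted p = 0.821 by edgeR). Nlgn2, the neuroligin of inhibitory synapses, differed by -0.18 ± 0.08. Gad1, which makes GABA, had 309, 374, 349 and 311 CPM on the right and 418, 354, 387 and 399 CPM on the left (-0.22 ± 0.09). Pvalb, the marker of fast-spiking interneurons, had 17.0, 40.1, 35.9 and 25.2 CPM on the right and 47.2, 32.0, 43.9 and 43.7 CPM on the left (-0.55 ± 0.32). Sst, the somatostatin gene of another interneuron class, had a log2 fold change near 0 (-0.01 ± 0.09, 95% interval -0.23 to 0.20), and Vip, of a further class, differed by 0.29 ± 0.25.

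Of 37 voltage-gated ion channel genes 28 had a negative log2 fold change, with a median of -0.14 and pair medians of -0.30, 0.09, -0.13 and -0.27. Cacna2d1, the alpha-2-delta subunit that gabapentin binds, had 107, 227, 101 and 103 CPM on the right and 210, 239, 257 and 251 CPM on the left. Its values fell on 2 levels: 3 right libraries lay near 100 CPM, and right pair 2 lay with the left libraries (-0.92 ± 0.24; adjusted p = 0.821 by edgeR with all pairs and 0.00383 without pair 2). Cacna2d2, its paralog, had 32.6, 38.6, 36.9 and 39.2 CPM on the right and 53.0, 55.4, 42.0 and 42.4 CPM on the left, with no overlap (-0.38 ± 0.11). Scn3b, described above, was the 1 channel gene higher on the right in every pair. Glutamate receptor genes had a median of -0.05 (17 of 24 negative), genes of synaptic vesicles and scaffolds one of -0.10 (25 of 33), and receptor genes for monoamines and acetylcholine one of -0.09 (19 of 28). The pair medians of glutamate receptor genes were 0.03, -0.01, -0.06 and -0.06. Those of vesicle and scaffold genes were -0.15, 0.02, -0.07 and -0.18. Those of monoamine and acetylcholine receptor genes were -0.13, 0.01, -0.17 and -0.28. Chrna7, the alpha-7 nicotinic receptor gene, had 13.9, 16.0, 12.8 and 12.4 CPM on the right and 16.2, 17.5, 16.8 and 16.6 CPM on the left (-0.29 ± 0.09). Oprm1, the mu opioid receptor gene, had too few counts to be tested.

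Energy and ribosomal genes differed by little and in several directions. Of 80 nuclear-encoded genes of oxidative phosphorylation 64 had a negative log2 fold change, with a median of -0.05 and 13 lower in 4 of 4 pairs (6.39% of all tested genes were), whereas all 13 mitochondrially encoded genes had a positive one, with a median of 0.10 and pair medians of -0.10, 0.01, 0.16 and 0.32. Pair 2 alone had a positive median for the nuclear-encoded genes (0.04), with 53 of 80 higher on the right. Of 16 glycolytic genes 13 were negative (median -0.13); Eno2, the neuronal enolase, had 662, 704, 580 and 606 CPM on the right and 790, 742, 740 and 789 CPM on the left (-0.27 ± 0.08). Of 82 ribosomal protein genes 70 were positive, with a median of 0.09, 17 higher in 4 of 4 pairs (6.44% of all tested genes were) and 1 lower. In pair 2 alone their median was negative (-0.02), with 36 of 82 higher on the right. Fkbp5, a glucocorticoid-induced gene, differed by 0.06 ± 0.08, and Bdnf, the neurotrophin, by 0.06 ± 0.11.

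**Figure D3:**
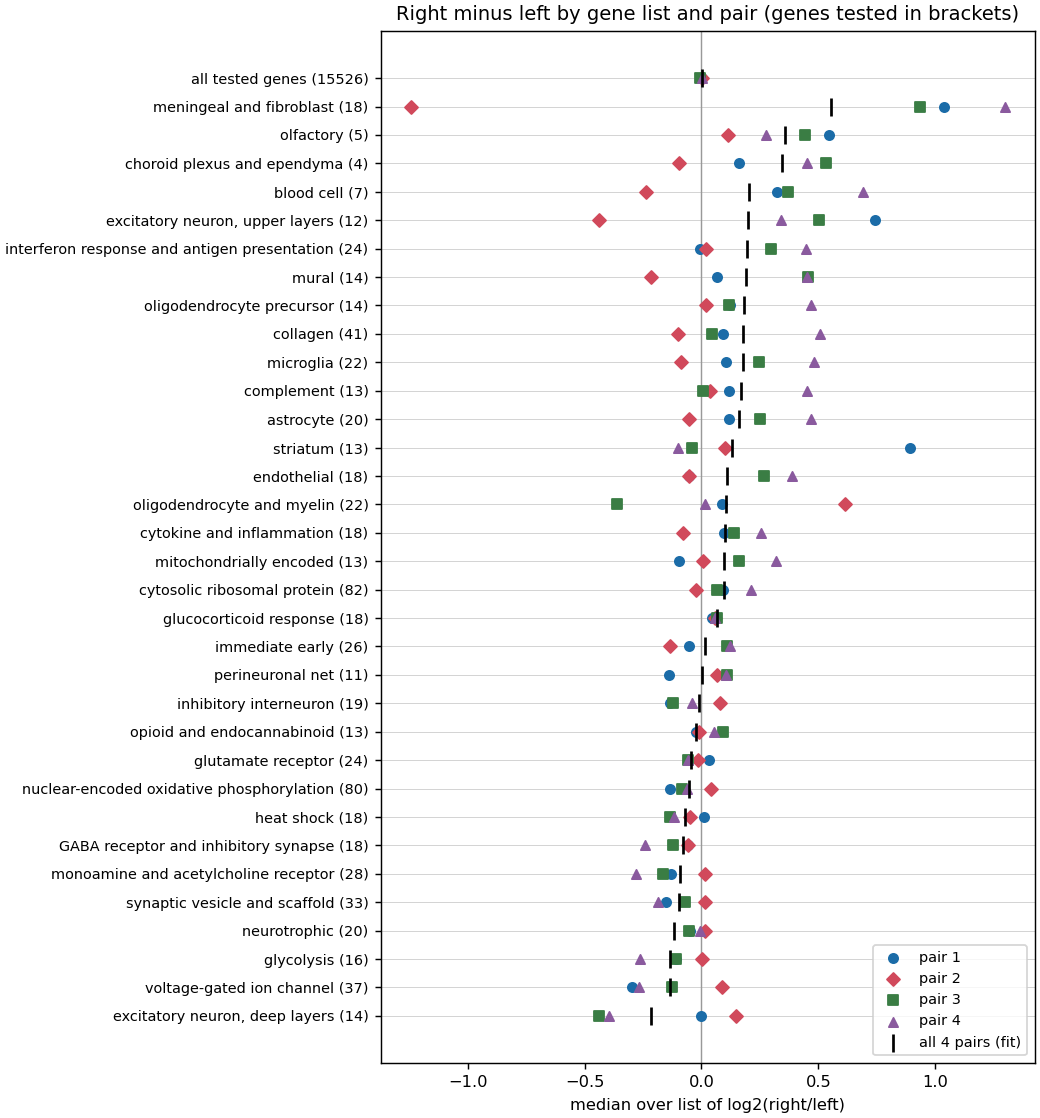
Median difference between right and left on the log2 scale (horizontal axis) for each gene list, by pair (coloured symbols), with the median log2 fold change over all 4 pairs as a black bar and the number of tested genes in brackets. Pair 2 lies on the other side of 0 from pairs 1, 3 and 4 for meningeal, blood cell and upper-layer markers. The same holds, often by less, for many other lists. Among them are microglial, astrocyte, mural, ion channel, ribosomal and nuclear-encoded oxidative phosphorylation genes. All tested genes stay near 0 in each pair.

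Immediate early genes, which neurons switch on within minutes of activity through calcium and cyclic AMP signals, varied widely between pairs, and no difference between sides was detected. Of 26 tested genes 15 had a positive and 11 a negative log2 fold change, with a median of 0.01. Arc, a regulator of synaptic strength, had 65.9, 141, 225 and 299 CPM on the right and 77.6, 143, 202 and 275 CPM on the left. Fos had 18.0, 31.0, 46.9 and 74.8 CPM on the right and 20.9, 39.0, 43.3 and 64.8 CPM on the left. In both genes pair 1 was the lowest and pair 4 the highest on both sides. The log2 fold change of Arc was 0.00 ± 0.08 (95% interval -0.18 to 0.19) with the pairs as a block and 0.07 ± 0.55 without it, and the log2 fold change of Fos was -0.05 ± 0.10 (95% interval -0.29 to 0.19) with the block and 0.02 ± 0.50 without. Egr2, Dusp1 and Nr4a1 had the same order of pairs on each side; Nr4a1 had 66.7, 77.2, 134 and 196 CPM on the right and 66.1, 91.0, 117 and 152 CPM on the left. Nr4a3, an orphan nuclear receptor gene like Nr4a1, ran the other way over pairs, with 39.3, 12.8, 19.5 and 9.18 CPM on the right and 39.8, 15.4, 25.9 and 12.02 CPM on the left. It was also the 1 gene of the group lower on the right in 4 of 4 pairs (-0.26 ± 0.09; unadjusted p = 0.0243, adjusted p = 0.821 by edgeR).

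The contrast of pairs and sides was put in 1 number per gene: the spread over pairs of the mean of both sides, divided by the spread over pairs of (right - left)/2, both as SDs of log2 CPM. Its median was 3.09 over the 26 immediate early genes and 0.98 over all tested genes. The number was above 2 in 19 of the 26 (73.1%) and in 16 of the 22 myelin genes (72.7%), against 12.8% of all tested genes. The lists were chosen with earlier results of these data known, so this contrast is a description and not a test. The number does not measure how far the sides differ, only how much that difference varies over pairs: Tbx15, higher on the right in every pair, had 5.09. For meningeal markers the median was 0.45, so their difference between sides varied more over pairs than their mean level did. Itgav, the integrin alpha-V gene, picked after its values were seen, had 76.1, 37.5, 94.2 and 87.0 CPM on the right and 84.6, 36.9, 93.5 and 89.7 CPM on the left, with both libraries of pair 2 low.

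**Figure D4:**
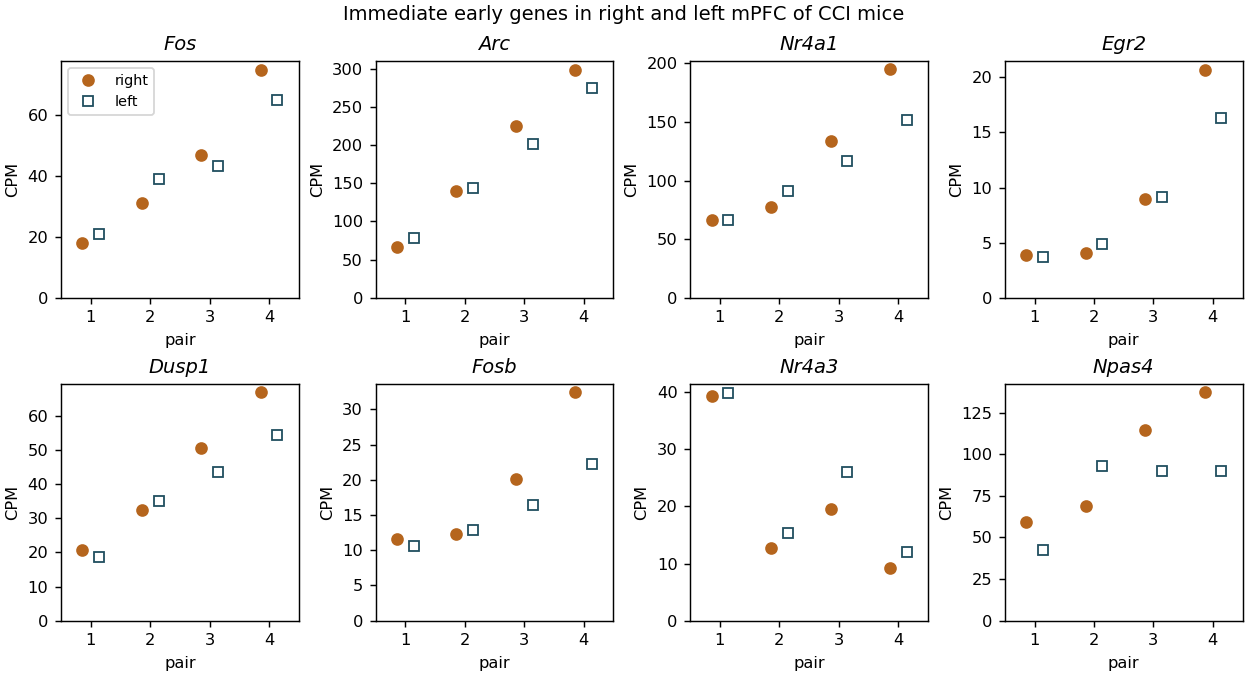
Levels in CPM (vertical axes, from 0) of 8 immediate early genes by pair, with the right library (filled circle) left of the left library (open square). Fos, Arc, Nr4a1, Egr2 and Dusp1 are lowest in pair 1 and highest in pair 4 on both sides, while Nr4a3 is highest in pair 1.

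Promoters of 3 of these genes, picked after their values were seen, are shown as examples of genes whose levels in right and left libraries moved together over pairs; such promoters are known to hold sites for the cyclic AMP response factor CREB. Each runs from 250 bases before to 50 bases after the start of transcription (RefSeq, GRCm38.p6), and capitals mark TGACG, the core of the CREB site, on either strand.
Fos, chr12:85473640-85473939, plus strand: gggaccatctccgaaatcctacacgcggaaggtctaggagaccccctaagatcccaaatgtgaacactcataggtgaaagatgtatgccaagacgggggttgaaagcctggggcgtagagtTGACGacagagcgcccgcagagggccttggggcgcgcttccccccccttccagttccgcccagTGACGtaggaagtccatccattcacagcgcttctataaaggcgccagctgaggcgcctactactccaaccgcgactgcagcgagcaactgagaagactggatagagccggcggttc
Nr4a1, chr15:101266596-101266895, plus strand: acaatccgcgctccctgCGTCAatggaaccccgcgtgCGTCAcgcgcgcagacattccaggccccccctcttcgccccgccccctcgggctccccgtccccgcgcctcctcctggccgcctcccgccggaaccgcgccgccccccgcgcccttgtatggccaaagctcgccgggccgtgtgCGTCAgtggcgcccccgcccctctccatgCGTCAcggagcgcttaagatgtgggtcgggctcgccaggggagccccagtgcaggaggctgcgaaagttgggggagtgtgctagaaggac
Dusp1, chr17:26508423-26508722, minus strand: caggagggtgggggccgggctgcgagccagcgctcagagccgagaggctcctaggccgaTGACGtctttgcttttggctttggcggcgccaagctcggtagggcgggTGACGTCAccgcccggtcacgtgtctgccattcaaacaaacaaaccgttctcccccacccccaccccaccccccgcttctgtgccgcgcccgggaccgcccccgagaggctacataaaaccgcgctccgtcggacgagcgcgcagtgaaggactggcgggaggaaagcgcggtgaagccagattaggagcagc
The Fos window holds 2 copies, the Nr4a1 window 4 and the Dusp1 window 3, of which 2 overlap in the palindrome TGACGTCA. Of 27 listed immediate early genes 21 had a promoter entry, and 16 of these (76.2%) held at least 1 copy in 1 of their promoters, against 23.0% of 27025 genes. The CArG box of serum response factor was also searched in these windows, and 1 of the 21 genes (4.76%) held it, against 1.81% of all genes. Bases farther from the start and listed genes without an entry were not searched, so boxes there would be missed. Copies and behaviour over pairs did not go together throughout: Nr4a3 held 4 copies and ran the other way over pairs, Nr4a2 held 4 with a number of 0.28 for pairs against sides, and Fosl2 (8.55) and Dusp6 (4.57) followed the pair with 0 copies. A match is a run of letters and not a measured binding site.

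Some genes sat on separate levels, with a wide gap between a low and a high set of libraries. Slc1a2, the main glutamate transporter of astrocytes, had 425, 384, 2711 and 2785 CPM on the right and 2551, 2430, 421 and 296 CPM on the left. Low libraries were right pairs 1 and 2 and left pairs 3 and 4, so its log2 fold change of 0.16 ± 2.10 carries no direction, and the summed level of 20 astrocyte markers (3822 to 7418 CPM on the right, 3722 to 6241 CPM on the left) is moved by it. Zfp664 had 125, 130, 23.3 and 25.8 CPM on the right and 19.6, 122, 117 and 118 CPM on the left. Of 10174 genes with a mean above 10 CPM, 69 had such a gap between neighbouring values (over 0.8 on the log2 scale and over 60% of the range), among them Cacna2d1, low in 3 right libraries and no left one, and Itgav, low in both libraries of pair 2. The gamma protocadherins Pcdhgb1, Pcdhgb4 and Pcdhgb8, adhesion genes whose models overlap, also varied widely: Pcdhgb8 had 47.4, 0.69, 69.9 and 339 CPM on the right and 20.1, 331, 5.28 and 0.57 CPM on the left. Reads of overlapping models can be split in more than 1 way, so these values are uncertain.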

How the data were processed

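RNA of mPFC tissue was sequenced from mRNA libraries. The authors deposited a single table with raw read counts per gene together with FPKM values; per the submitters' processing notes reads were aligned with HISAT2 2.0.4 to GRCm38 (mm10), and the labels name no counting tool or strand setting. FPKM equalled the deposited counts after scaling (relative departure at most 6.48e-06), so only counts were tested. Genes were filtered with filterByExpr and fitted in R 4.3.3 with edgeR 4.0.16 (TMM factors, robust quasi-likelihood, pair plus side; two-sided; 3 residual degrees of freedom), with Benjamini-Hochberg adjustment over 15526 genes; a log2 fold change is right over left. CPM values use TMM library sizes; differences per pair are of log2 CPM with a prior count of 2. Alternatives were DESeq2 1.42.0, limma 3.58.1 (voom), other scalings and filters, no block, and each pair left out. Scripts were tested on simulated data with 200 changed genes. Genes named are the 12 of smallest p per direction (predicted models left out), up to 3 of smallest p per list, 13 chosen genes, and 6 with the largest SD over pairs of right minus left among genes of mean CPM over 10. The lists and their members were chosen with earlier results of these data known. Where libraries of a side are not stated to be separate animals, p-values measure only the spread between these libraries. Some genes of the lists are not reported here.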

Additional observations from a re-analysis of the deposited data

Results flagged for a closer look

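In each side's 4 libraries, a value was picked out when its gap to the nearest other value as a share of the range was above Dixon's critical value at 95%. Of 114 groups of 4 looked at, 16 had such a value. Chance gives about 1 in 20 for independent groups, but these groups share libraries. They also include genes named for a wide spread over pairs, so the count cannot be set against that rate. Total counts were 16.1 M in right pair 2, against 17.6 to 17.9 M in the other right libraries, and 20.6 M in left pair 2, against 17.5 to 17.9 M in the other left libraries. The summed striatal markers stood at 838 CPM in right pair 1, and the summed meningeal and fibroblast markers at 112 CPM in left pair 2, against 75.9 to 76.7 CPM in the other left libraries.

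Among the genes of smallest p, Chpf was low in left pair 2 (50.5 CPM), Trim66 high in right pair 2 (56.9 CPM), Cenpf high in right pair 1 (2.63 CPM), Fam173b high in left pair 1 (13.1 CPM), Usp10 low in right pair 3 (30.6 CPM) and Mirg high in right pair 4 (37.0 CPM). Of the genes named for a wide spread over pairs, Pcdhgb1 stood at 338 CPM in right pair 2 and 11.2 CPM in left pair 4, and Pcdhgb8 at 331 CPM in left pair 2. Pcdhgb4 stood at 291 CPM in right pair 1 and 337 CPM in left pair 4, and Zfp664 at 19.6 CPM in left pair 1. Their causes were not tested.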

How the results depend on the processing

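With all 4 pairs, edgeR called 0 genes under each scaling, filter and spread setting tried, and so did limma voom, whose genes at an unadjusted p under 0.05 numbered 739; DESeq2 called 6, with 443 genes at an unadjusted p under 0.05. Leaving out 1 pair gave 0 to 71 calls and 299 to 2201 genes at an unadjusted p under 0.05, the highest without pair 2. Without the replicate block there were 0 calls (927 genes at an unadjusted p under 0.05), and 0 to 51 with 1 pair left out, a fit added after seeing the data. Over all genes, right and left libraries of 1 number had correlations of 0.00, -0.14, 0.04 and 0.06 of their deviations from the side means. Libraries of different numbers reached 0.15 (right pair 2 with left pair 1) and 0.14 (right pair 1 with left pair 2). The data thus do not show the pairing across the whole table. Over the 26 immediate early genes, chosen after values were seen, the correlations within 1 number were 0.91, -0.07, 0.43 and 0.88. For right pairs 1, 3 and 4 the left library of the same number gave the highest value. For right pair 3 the margin was small, with 0.41 for left pair 2. Right pair 2 was highest with left pair 1 (0.35). Of the 71 genes, 3 are among the 6 of DESeq2.

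Directions turned in genes near 0 or with wide spread. The log2 fold change of Fos was 0.025 and the log2 fold change of Pcdhgb4 was -0.082 without the block, and the log2 fold change of Sst was 0.012 with library totals. With 1 pair left out, the log2 fold change of Ttr ran from -0.12 to 0.61, and by the same measure ranges were Mbp from -0.062 to 0.22, Bdnf from -0.063 to 0.13, Fos from -0.14 to 0.054, Zfp664 from -1.47 to 0.16, Zbed6 from -1.25 to 0.25, Pcdhgb4 from -1.29 to 2.15, Sst from -0.087 to 0.073, Slc1a2 from -1.26 to 1.56, Arc from -0.047 to 0.091 and Aif1 from -0.083 to 0.21. None of these genes passed in any of these fits. With 4 libraries a side, small differences are near the limit of what the test can call.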
